A study of Mus musculus with 6 samples.

Results

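The genes described here are 42 interferon-induced antiviral genes of the mouse, taken by a fixed list of symbols and followed through 6 RNA sequencing libraries of the substantia nigra pars compacta (SNpc). They stand among 35049 genes of the captured samples and 37991 genes of the punched samples, and all 42 were found in both kinds of file. By symbol 40 were matched, and 2 were matched by gene identifier because the files use older names, Ifi27 as Ifi27l1 and Phf11d as D14Ertd668e.

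Type I interferons are secreted when a cell detects viral or bacterial molecules, and they bind the receptor of Ifnar1 and Ifnar2 on the same and on neighbouring cells. The receptor's kinases activate transcription factors, among them Stat2, which joins Irf9 in a complex that binds a promoter element called the interferon-stimulated response element (ISRE). The genes switched on in this way sense foreign RNA and DNA, block steps of viral replication, mark proteins with the ubiquitin-like protein Isg15, and feed back on the pathway. In the brain, microglia, astrocytes, endothelial cells, neurons and infiltrating immune cells can all carry this response.

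The 6 libraries formed 6 groups of 1 sample each and 3 pairs. Wild type mice and En1+/- mice, which keep 1 working copy of the homeobox gene Engrailed 1, were both 6 weeks old. Mice of 8 weeks, with a wild type genotype label, were infused over 7 days, by osmotic pump, with the protein of Engrailed 2 (En2), and the infused (ipsilateral) side of the brain was set against the contralateral side. In these 4 samples, called captured here, cells stained for tyrosine hydroxylase, the enzyme that marks dopaminergic neurons, were isolated with a laser. The last pair were 1 mm punches from frozen slices 2 mm thick, from mice of 8 weeks with a wild type label that had all been injected with 6-hydroxydopamine (6-OHDA), a toxin of dopaminergic neurons. After 30 min these mice received either 2 µl of saline vehicle (NaCl 0.9%) or 300 ng of recombinant En2 made in bacteria, in a volume of 2 µl (4 µM), together with colominic acid (3 µg). The effects of En2 itself, of colominic acid and of anything carried over from the bacterial preparation therefore cannot be told apart in the punched pair. No library came from an infusion without En2. In the infused pair the effects of En2, of anything infused with it and of the infusion procedure therefore cannot be told apart either. The sources used here do not give the number of animals per sample. The labels name the infused protein En2 where the deposited tables carry En1 (the labels were followed).

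Total counts ranged from 15927206 to 21332308 per library. In the captured libraries mitochondrial and ribosomal RNA took 79.4% to 88.9% of the counts on genes, which left 1510189 counts for wild type, 3272409 for En1+/-, 1908503 for the contralateral and 2308707 for the infused library. In the punched libraries 15927153 counts were left after 6-OHDA and 19044603 after 6-OHDA then En2. Levels are given as CPM, each gene's share of these remaining counts scaled to a common total. Captured files count reads per transcript and punched files per gene, so levels were not compared across them. In each captured library the summed level of 8 oligodendrocyte markers was above that of 12 dopaminergic markers (18195 to 26529 CPM against 7651 to 10037 CPM), so RNA of cells other than the labelled neurons was read in them. En1 itself was covered by 77 wild type reads and 47 from En1+/-, a log2 ratio of -1.70 (-2.27 to -1.17) after scaling. Each group is a single sample, so no difference was tested, intervals in parentheses are exact 95% counting intervals, and they cover counting error only. A gene was called higher or lower, in place of a test, when 1 library of the pair had at least 20 reads, the log2 ratio was at least 1 in size and its interval excluded 0.

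The promoters of these genes were read from RefSeq on GRCm38.p6, in windows from 250 bases before to 50 bases after each gene's start. A window was given for 29 of the 42 genes. The letters searched as ISRE were 2 copies of GAAA parted by 2 bases, on both strands. They stood in the windows of 14 of the 29 genes, or 48.3% (exact 95% interval 29.4 to 67.5), against 1079 of all 27025 genes with a window, or 3.99%. Of the 14 genes, 8 had 2 or more matches in a window, and overlapping matches were counted separately. The palindrome TTCNNNGAA, the letters of the interferon-gamma activated site, stood in 6 of the 29, or 20.7% (7.99 to 39.7), against 9.55% of all genes. A match of letters is a description of the sequence and not a mapped binding site.

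Stretches of 5 promoters are shown. Rsad2, Ifit1, Ifit3 and Ddx58 had the most reads after 6-OHDA then En2 among the genes with a match, and Isg15 was added after its values were seen because its window held the most matches. Ifit2, Cmpk2, Oasl2 and Dtx3l had more reads than Ddx58 and a window without a match, and are not shown. Each is written 5′ to 3′ on the strand of the gene, with 25 bases on either side where the start site allows, and the capitals mark the ISRE letters, which read as TTTC where the match is on the opposite strand. The first belongs to the antiviral enzyme gene Rsad2, whose match ends at position -111 from the start. Ifit1 and Ifit3, which encode RNA-binding proteins, have 2 matches each. Isg15 encodes a ubiquitin-like modifier and has 3 overlapping matches. Ddx58 encodes the RNA sensor RIG-I and has 1 match, which begins 2 bases after the start.
Rsad2 (chr12:26456538-26456597, minus strand): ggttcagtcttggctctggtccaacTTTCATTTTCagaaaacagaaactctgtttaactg
Ifit1 (chr19:34640760-34640838, plus strand): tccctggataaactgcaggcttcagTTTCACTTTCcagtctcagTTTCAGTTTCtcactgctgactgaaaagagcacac
Ifit3 (chr19:34583348-34583441, plus strand): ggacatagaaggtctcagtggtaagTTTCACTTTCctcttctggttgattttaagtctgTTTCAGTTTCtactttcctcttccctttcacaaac
Isg15 (chr4:156200850-156200921, minus strand): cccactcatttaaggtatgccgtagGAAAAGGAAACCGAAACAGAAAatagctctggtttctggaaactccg
Ddx58 (chr4:40239796-40239848, minus strand): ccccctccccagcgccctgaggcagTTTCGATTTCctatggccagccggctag

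**Figure D1:**
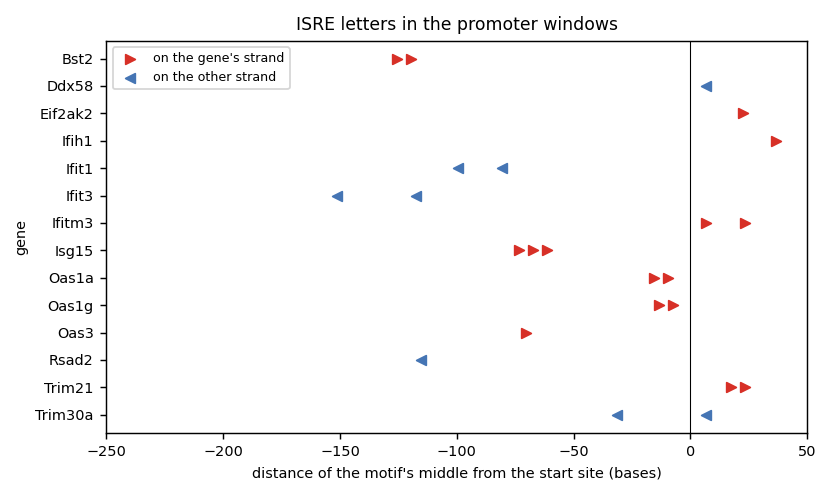
Distance in bases of the middle of each match to the ISRE letters from the gene's start site (0 on the x axis), for the 14 genes with a match. Triangles show the strand of the match relative to the gene; in 9 of the 15 windows that hold a match, the match nearest the start lies within 150 bases upstream of it.

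Genes of the same family also lie side by side. On chromosome 19 of GRCm38 (GENCODE M21), Ifit2 ends 7112 bases from Ifit3, and Ifit3 lies 52140 bases from Ifit1. On chromosome 5, Oas2 and Oas3 are 3245 bases apart, Oas1g and Oas1a 8643, and Oasl2 and Oasl1 11006. Rsad2 and Cmpk2, which encodes a nucleotide kinase, are 12752 bases apart on chromosome 12, and Dtx3l and Parp9 overlap by 682 bases on opposite strands of chromosome 16. Some members are near copies, so reads can be split or shared between them. The transcripts of Oas1a and Oas1g were 97.5% identical, and that of Ifit3 was 97.8% identical to that of its neighbour Ifit3b, which is not on the list. Mx2 and Oas1b are typed as polymorphic pseudogenes in this annotation. The sources used here do not say whether counting used strand.

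The 42 genes had lower summed levels in the wild type, En1+/- and contralateral libraries than on the infused side. Among the punches they were lower after 6-OHDA alone. Their summed level was 227 CPM (204 to 252) in wild type, 209 CPM (194 to 225) in En1+/- and 240 CPM (219 to 263) on the contralateral side. On the infused side it was 511 CPM (482 to 541). In the punches it was 337 CPM (328 to 346) after 6-OHDA and 3878 CPM (3850 to 3906) after 6-OHDA then En2. The captured values rest on 343, 684, 458 and 1179 reads in the order wild type, En1+/-, contralateral and infused, the punched values on 5370 and 73855. Within pairs, the summed reads after scaling stood at a ratio of 0.997 (0.875 to 1.14) for En1+/- over wild type, 2.28 (2.05 to 2.55) for infused over contralateral, and 11.7 (11.4 to 12) for 6-OHDA then En2 over 6-OHDA.

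Few of the genes were well covered in the captured libraries. Genes with at least 20 reads numbered 6 for wild type, 8 for En1+/-, 10 contralaterally and 15 on the infused side, and 16, 22, 11 and 11 of the 42 had no read. At these depths 3 reads, the floor used for a count of 0, correspond to 1.99, 0.917, 1.57 and 1.30 CPM. Every one of the 42 had reads in both punched libraries, and 31 had at least 20 after 6-OHDA against all 42 after 6-OHDA then En2. Isg15, Zbp1, Oas1a, Oas1g, Oas3, Oasl1, Ifi204 and Phf11d had no read in any captured library. Ifi27 and Cmpk2 were the 2 highest members in wild type, at 35.1 and 33.1 CPM.

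**Figure D2:**
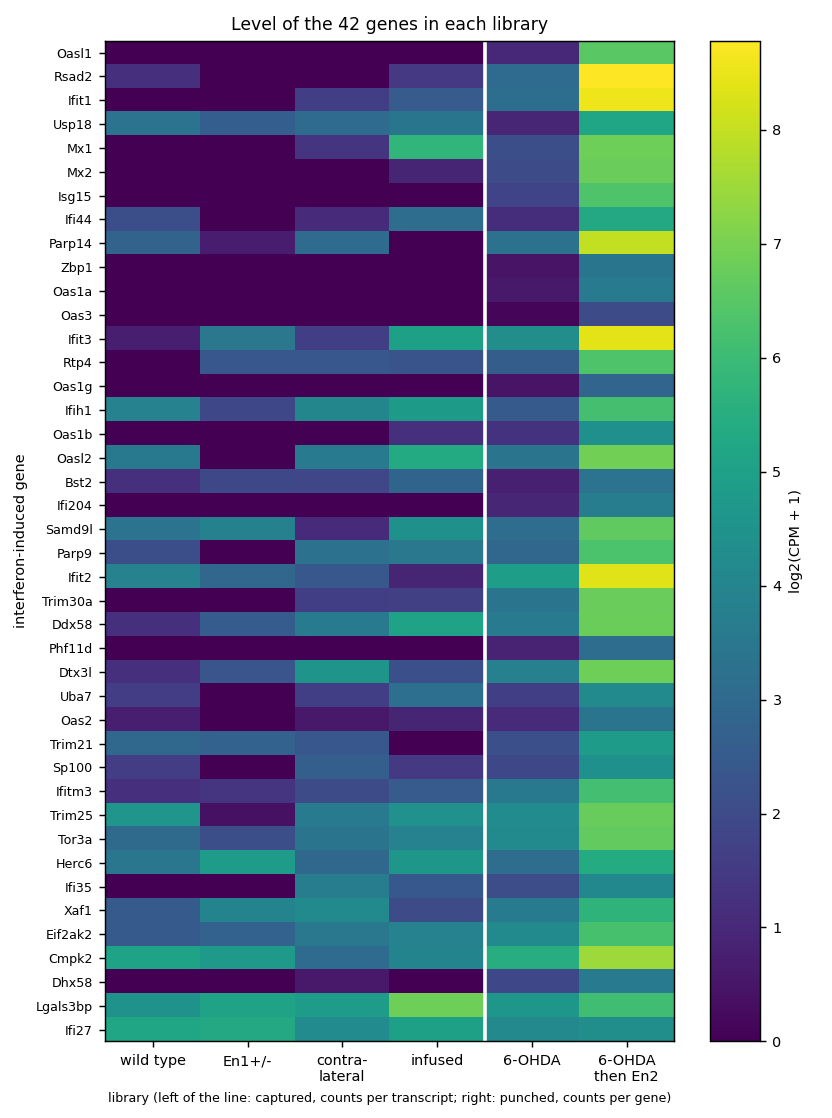
Heat map of the level of each of the 42 genes (rows) in each of the 6 libraries (columns), as log2(CPM + 1), with genes ordered by their ratio in the punched pair. Of the 2 punched columns, that for 6-OHDA then En2 is the brighter in every row. The 4 captured columns left of the white line are counted per transcript and the 2 punched columns per gene. Brightness is therefore not compared across the line.

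After 6-OHDA then En2, nearly the whole set was higher than after 6-OHDA alone. Of the 42 genes, 41 were called higher (97.6%), none lower, and only Ifi27 was not called. Over all 15747 genes with at least 20 reads in 1 of the punches, 4.66% were called higher and 1.23% lower. The median log2 ratio of the 42 was 3.64, a 12.4-fold ratio, against 0.0082 over all genes measured. For 29 genes the log2 ratio was at least 3, for 11 it lay between 2 and 3, and for 1 between 1 and 2. Among the 100 genes of the whole table with the highest lower end of the interval, 18 were members. Ratios in punches can reflect more RNA per cell or more cells that carry these RNAs, which cannot be told apart.

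**Figure D3:**
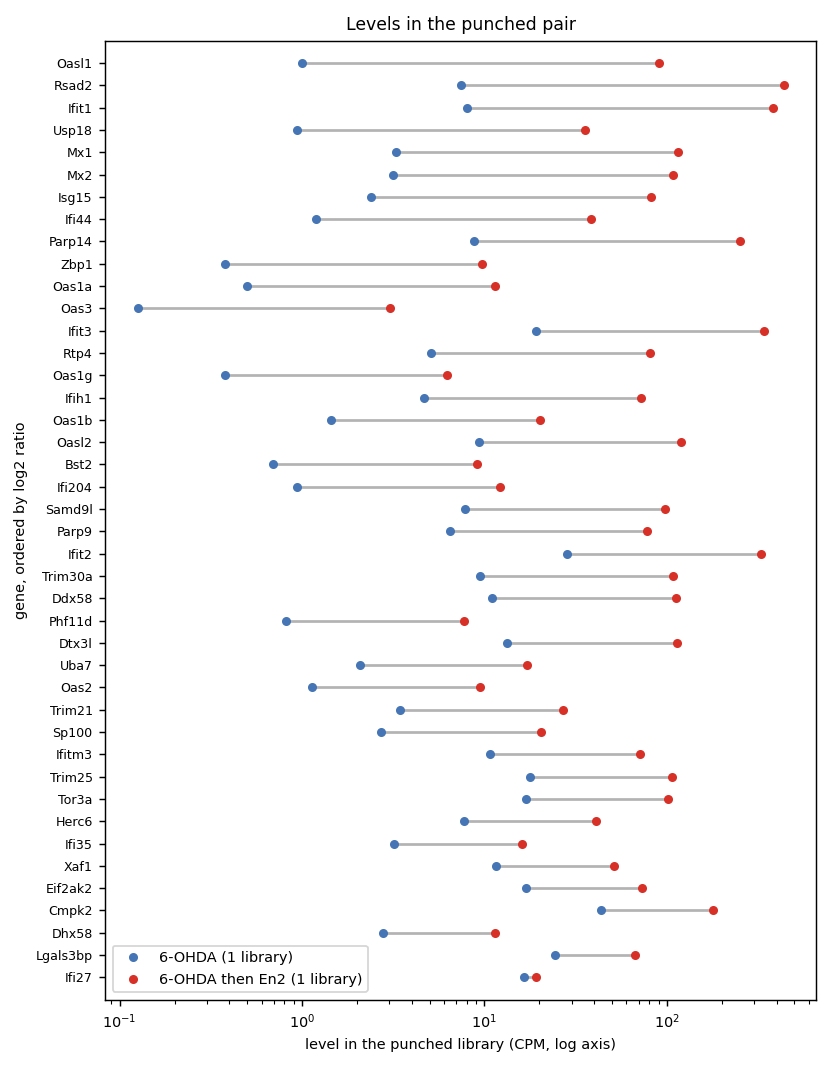
Level in CPM (log axis) of each of the 42 genes in the 6-OHDA library (blue) and the 6-OHDA then En2 library (red), 1 library each, ordered by log2 ratio. The red point lies to the right of the blue one for every gene, by the least for Ifi27 (16.5 and 19.1 CPM) and by the most for Oasl1 (1.00 and 90.7 CPM).

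Genes that act directly on viral RNA and replication led by reads. Rsad2, whose product viperin makes a nucleotide that halts RNA synthesis, had 119 reads after 6-OHDA and 8359 after 6-OHDA then En2, a 59.5-fold ratio (49.9 to 72.2). Ifit1, which binds viral RNA with unfinished caps, had 128 and 7230 reads, 47.9-fold (40.3 to 57.7). Its relatives started from higher counts. Ifit3 had 305 and 6461 reads, 18-fold (16.1 to 20.3), and Ifit2 had 453 and 6234, 11.7-fold (10.6 to 12.9). These were the 4 most-read members after En2, and together they held 38.3% of the members' reads there against 18.7% after 6-OHDA alone. Cmpk2, the neighbour of Rsad2, was already at 690 reads after 6-OHDA and reached 3395, 4.18-fold (3.85 to 4.55). The intervals of the neighbours Rsad2 and Cmpk2 lay far apart.

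The Mx genes encode dynamin-like GTPases that trap viral nucleoproteins, and their ratios were close. Mx1 had 52 and 2179 reads, 35.3-fold (27.1 to 47.9), and Mx2 had 50 and 2047, 34.5-fold (26.3 to 47.1). Their transcripts were 75.9% identical over the aligned part, and the intervals of the ratios overlapped.

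Oligoadenylate synthetases make short adenylate chains that activate RNase L, which cuts RNA. All 5 Oas genes were called higher, from low counts. Oas1a had 8 and 217 reads, 21.9-fold (11.5 to 54.1), and its near copy Oas1g had 6 and 119, 15.7-fold (7.53 to 46.9). Oas3 had 2 and 58 reads, 20.2-fold (6.53 to 209), Oas1b had 23 and 385, 14.0-fold (9.35 to 22.7), and Oas2 had 18 and 180, 8.32-fold (5.23 to 14.7). Their intervals overlapped one another. The related Oasl1, which in mice also curbs translation of Irf7, had the highest ratio of the 42, with 16 and 1728 reads and 89.3-fold (56.4 to 161). Its neighbour Oasl2 had 148 and 2290 reads, 13.1-fold (11.1 to 15.6), below Oasl1 with no overlap of the intervals.

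The sensors of foreign nucleic acid were all called higher. Ifih1 encodes MDA5, a sensor of long double-stranded RNA, and had 74 and 1376 reads, 15.7-fold (12.5 to 20.3). Ddx58 had 176 and 2138 reads, 10.3-fold (8.86 to 12.1). Dhx58, whose product LGP2 modulates the other RNA sensors, had 44 and 218, 4.18-fold (3.04 to 5.97), so that its interval lay below those of both. Eif2ak2 encodes PKR, a kinase that stops translation on double-stranded RNA, and had 270 and 1393 reads, 4.38-fold (3.85 to 5.02). Zbp1, a sensor of left-handed nucleic acid that can trigger necroptosis, had 6 and 185 reads, 24.4-fold (11.8 to 72.4). Ifi204, of the DNA-sensing Ifi200 family, had 15 and 233, 12.8-fold (7.85 to 24.0).

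The genes of the Isg15 system moved by unequal amounts. Isg15, the modifier itself, had 38 and 1557 reads, 34.4-fold (25.3 to 49.4). Usp18, which removes Isg15 and also blocks the interferon receptor, had 15 and 677 reads, 37.3-fold (23.1 to 69.0). Uba7, the activating enzyme, had 33 and 327, 8.33-fold (5.88 to 12.5), and Herc6, the main Isg15 ligase in mice, had 123 and 781, 5.38-fold (4.46 to 6.59). The modifier and its protease lay above the activating enzyme and ligase, with no overlap of the intervals. Ubiquitin ligases of the Trim family were also called higher. Trim30a, a brake on Toll-like receptor signalling in mice, was 11.7-fold higher (9.92 to 13.9), the antibody-binding Trim21 was 7.88-fold higher (6.00 to 10.7), and Trim25, which acts on RIG-I, was 6.13-fold higher (5.42 to 6.98).

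Genes of ADP-ribosylation formed another group. Parp14, a mono-ADP-ribosyltransferase, had 139 and 4792 reads, 29.2-fold (24.8 to 35.0), and was the fifth most-read member after En2. Parp9 had 103 and 1473 reads, 12.1-fold (9.96 to 15.0), and its partner Dtx3l, a ubiquitin ligase, had 212 and 2162, 8.66-fold (7.53 to 10.0). These partners overlap on opposite strands, so reads in the shared 682 bases could be assigned to either. At cell membranes, Ifitm3, which blocks viral fusion in endosomes, had 171 and 1351 reads, 6.70-fold (5.73 to 7.93). Bst2 (tetherin), which holds budding virus at the cell surface, had 11 and 173, 12.9-fold (7.29 to 27.3).

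Of the remaining 10 members, 9 were called higher. Ifi44 had 19 and 735 reads, 32.1-fold (20.9 to 55.0), Rtp4, a chaperone of membrane receptors, had 81 and 1545, 16.1-fold (13.0 to 20.5), and Samd9l, a translation inhibitor, had 124 and 1868, 12.8-fold (10.7 to 15.5). Phf11d, Sp100, Tor3a, Ifi35 and Xaf1 lay between 9.32-fold and 4.46-fold. Sp100 is a component of nuclear bodies, and Xaf1 binds inhibitors of apoptosis. The smallest ratio among the genes called belonged to Lgals3bp, a secreted glycoprotein, with 386 and 1271 reads and 2.80-fold (2.50 to 3.15). Ifi27, a mitochondrial protein gene, had 263 and 364 reads, which gave a log2 ratio of 0.23 (0.0025 to 0.47), below the other 41.

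The order of the genes by level differed from their order by ratio. Per kilobase of exon, the highest levels after En2 were 194 CPM per kilobase for Ifit3, 143 for Ifit1, 108 for Isg15, 105 for Ifitm3 and 101 for Rsad2, and the lowest was 0.431 for Oas3. After 6-OHDA alone Ifitm3 led with 15.8 CPM per kilobase, before Ifi27 with 11.3, Ifit3 with 11.0 and Cmpk2 with 10.4. Isg15 stood at 3.16 and Rsad2 at 1.72 CPM per kilobase in that library. The genes with the ISRE letters in their window had a median log2 ratio of 3.98 (n = 14, range 2.13 to 5.90), and those with a window but no match 3.06 (n = 15, range 1.48 to 6.48). These ranges overlapped widely, and Oasl1, with the highest ratio of all, had no match in its window. The 13 genes without a window had a median of 3.81.

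In the authors' deposited table of the punched pair, 41 of the 42 genes had an adjusted p under 0.05, against 2.04% of 22834 genes that were so listed as higher. The adjusted p in the authors' deposited table ran from 7.96e-126 for Rsad2 to 0.0293 for Oas3, and was 1 for Ifi27. These p-values were made from 1 library per group and carry no replicate spread.

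Other parts of the interferon pathway moved less evenly in the punches. Transcripts of the interferons themselves were scarce: of 19 ligand genes in the files none reached 20 reads, Ifnb1 had 0 and 14 reads, and Ifng had 0 and 4. Of 11 receptor and signalling genes, 3 were called higher and none lower, with a median log2 ratio of 0.27. Those 3 were the transcription factor genes Stat2 (595 and 3262 reads, log2 ratio 2.22) and Irf9 (373 and 1982, 2.17) and the receptor gene Ifnar2 (149 and 363, 1.05), while the partner receptor gene Ifnar1 was covered by 860 and 1004 reads (log2 ratio -0.01, -0.14 to 0.12). Of 17 measured sensors and adaptors that act upstream of interferon, 8 were called higher and 1 lower. Irf7, the factor that amplifies interferon production, was at 37 and 1117 reads, which is 4.67 (4.21 to 5.20) on the log2 scale, and Irf1 had 142 and 1810, 3.43 (3.19 to 3.70). Cd14, the co-receptor for bacterial endotoxin, was at 2.66 (2.54 to 2.78), whereas Tlr7, a sensor of single-stranded RNA, was lower at -1.08 (-1.42 to -0.75). On the same list Myd88 was called higher (198 and 798 reads, 1.77). Tlr4 (24 and 36 reads, 0.35) and Ticam1 (200 and 209, -0.17) were not called. Ly96 (11 and 9 reads) and Ticam2 (6 and 3) were below the minimum. Of 6 feedback inhibitors 3 were called higher, Socs1 from 8 to 171 reads (4.11), Socs3 from 436 to 3497 (2.77) and Ptpn2 (1.05).

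**Figure D4:**
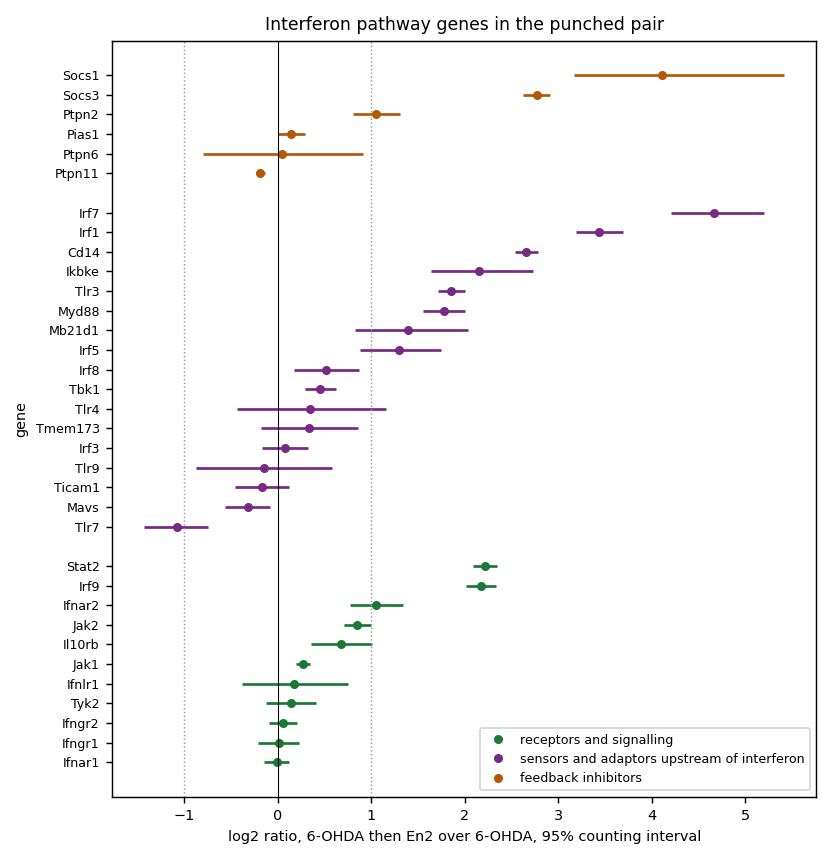
Log2 ratio of 6-OHDA then En2 over 6-OHDA, with 95% counting intervals as bars, for measured interferon pathway genes outside the 42, 1 library per group. Socs1, Irf7 and Irf1 lie furthest right, most receptors and kinases lie between the dotted lines at a log2 ratio of -1 and 1, and Tlr7 is the only gene called lower.

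Markers of several cell types differed between the punches, some higher and some lower after En2, and their part in the result was not tested. All 5 measured of 10 neutrophil markers were called higher, and their summed level was 6.84 CPM after 6-OHDA and 97.0 CPM after En2. S100a8 went from 0 to 257 reads, a 72.9-fold ratio against the floor of 3 reads, with a lower interval end of 58.8-fold. S100a9 had 4 and 760 reads, and Cxcr2 had 1 and 235. The neutrophil list had 6 markers at 0 before and 2 after. Microglial markers were lower in sum (280 and 136 CPM), with 5 of 10 called lower and none higher. Tmem119 had 175 and 24 reads and Cx3cr1 875 and 166, while Aif1 went the other way without a call (21 and 37, log2 ratio 0.57). For monocytes and macrophages 2 of 5 measured markers were called higher (Ccr2 with 4 and 30 reads, Itgal with 5 and 28) and the sum was 16.1 and 21 CPM, with 0 and 1 of 7 markers at 0. Cd163 (25 and 15 reads), Mrc1 (39 and 33) and Ms4a7 (4 and 0) went the other way without a call. Markers of T and NK cells were near 0, at 0.251 and 0.998 CPM, with 6 and 1 of 9 at 0. Endothelial markers stood at 300 and 241 CPM, astrocyte markers at 5629 and 6797, oligodendrocyte markers at 30833 and 24297, and dopaminergic markers at 475 and 629. The list for plasmacytoid dendritic cells, which holds the member Bst2, stood at 115 and 148 CPM.

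On the En2-infused side of the captured pair, some members were higher than on the contralateral side and a few were lower. Of 18 genes with at least 20 reads in 1 library, 9 were called higher (50%), 3 lower (16.7%) and 6 neither. Over 11361 genes measured in this pair, 20.7% were called higher and 17% lower, so the share higher lay above the background and the share lower next to it. The median log2 ratio of the 18 was 0.95 against 0.077 over all genes, and 15 were positive. Another 16 of the 42 had some reads but fewer than 20, and 8 had none.

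Mx1 led the infused pair, with 3 reads on the contralateral and 124 on the infused side, a 31.8-fold ratio (12.3 to 180). Samd9l had 2 and 47 reads, 17.1-fold (5.46 to 177), and Ifit3 had 4 and 71, 14.2-fold (5.89 to 59.4). Lgals3bp held the most reads of the set there, with 52 and 262 and 4.44-fold (3.31 to 6.14). Oasl2 had 21 and 92 reads, 3.82-fold (2.40 to 6.58), Herc6 had 13 and 56, 3.72-fold (2.06 to 7.62), and Ddx58 had 22 and 74, 2.94-fold (1.83 to 5.05). Cmpk2 (14 and 34 reads, log2 ratio 1.08) and Trim25 (21 and 48, 1.00) lay close to the limit for a call, and both lost it when libraries were scaled by their totals (0.98 and 0.90). With counts summed over transcripts, Oasl2 (0.86), Ddx58 (0.99) and Trim25 (0.87) were not called either, while Ifih1 (1.03) was called higher. The genes not called were Ifih1 (29 and 61 reads, log2 ratio 0.89), Ifi27 (34 and 71, 0.88), Tor3a (18 and 32, 0.64), Eif2ak2 (20 and 32, 0.50), Usp18 (14 and 22, 0.47) and Parp9 (17 and 24, 0.32).

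The 3 genes called lower were Dtx3l, Xaf1 and Ifi35. Dtx3l went from 43 contralateral to 8 infused reads (log2 ratio -2.52, -3.90 to -1.49). Xaf1 had 33 and 7, -2.32 (-3.83 to -1.21), and Ifi35 had 23 and 10, -1.33 (-2.61 to -0.25). Ifi35 is the 1 member whose most-read captured transcript is not typed as protein-coding. With the most-read protein-coding transcript of each gene, 9 members were still called higher and 3 lower. Dtx3l and Ifi35 both overlap other annotated genes on the opposite strand, and Herc6, called higher, overlaps another on the same strand. Several genes that led in the punches were scarce in the infused pair: Rsad2 had 0 and 4 reads, Ifit1 had 4 and 11, Ifit2 had 8 and 2, and Parp14 had 14 and 0. Isg15 and Oasl1 had no read on either side.

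In the infused pair, 1 of 9 measured receptor and signalling genes was called higher, Irf9 with 27 and 96 reads (log2 ratio 1.64), and 2 lower, Ifnar1 with 118 and 36 (-1.87) and Ifngr1 with 33 and 17 (-1.11). Of 9 measured upstream sensors and adaptors 5 were called higher and 2 lower, among them Cd14 with 1 and 90 reads (5.77) and Tbk1 with 69 and 33 (-1.22). Of the 3 measured feedback inhibitors 1, Ptpn11, was called higher, and no ligand gene was measured. Over all genes in this pair 20.7% were called higher and 17% lower, and each list holds few measured genes. Microglial markers were at 468 CPM on the contralateral and 782 CPM on the infused side, with 5 of 10 called higher and none at 0. Those of monocytes and macrophages were at 32.0 and 91.0 CPM, with Ms4a7 at 0 and 89 reads, Ccr2 at 0 and 22, and 4 and 1 of 7 markers at 0. In that list Cd163 went the other way, with 8 and 1 reads, below the minimum for a call. Neutrophil markers were near 0 on both sides, at 5.76 and 3.90 CPM with 8 and 9 of 10 at 0, and the part of these cells in the result was not tested. Astrocyte markers stood at 7248 and 7721 CPM with a median log2 ratio of -0.058, and 1 of 8, Gfap, with 155 and 1092 reads, was called higher and none lower. In the authors' deposited table of this pair 34 members are listed and none has an adjusted p under 0.05, while 3 have an unadjusted p under 0.05. Mx1 had the lowest, p = 0.00231 with an adjusted p of 0.567 in the authors' deposited table.

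In the En1+/- pair the members moved in both directions. Of 10 measured genes, 3 were called higher (30%), 2 lower (20%) and 5 neither, against 20.2% higher and 14.2% lower over 11500 genes, and with so few genes these shares lie near the background. The median log2 ratio was 0.44 against 0.10 over all genes, and its sign turned with no minimum count (-0.25), with counts summed over transcripts (-0.07) and with at least 20 reads in both libraries (-0.0066). Another 17 of the 42 had fewer than 20 reads in both libraries, and 15 had none. The En1+/- library had 3272409 usable counts and the wild type library 1510189, so the minimum of 20 reads favours genes that are higher in it.

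Ifit3 was read once in wild type and 33 times in En1+/- (log2 ratio 3.64, 1.47 to 9.39). Xaf1 had 7 and 48, 1.73 (0.63 to 3.17), and Herc6 had 15 and 89, 1.55 (0.77 to 2.47). Trim25 had 35 and 1, -5.37 (-11.47 to -3.56), and Ifih1 had 21 and 9, -2.14 (-3.53 to -1.03). The genes not called were Lgals3bp (32 and 105 reads, log2 ratio 0.71), Samd9l (14 and 44, 0.64), Ifi27 (53 and 125, 0.24), Cmpk2 (50 and 84, -0.25) and Ifit2 (21 and 21, -0.98). Below the minimum, Oasl2 went from 16 to 0 reads and Rtp4 from 0 to 14. Of 9 measured receptor and signalling genes 3 were called higher, among them Irf9 with 3 and 128 reads and Stat2 with 40 and 215. Ifnar1, with 99 and 96, was the 1 called lower (log2 ratio -1.04). Irf9 was also called higher on the contralateral side than in wild type (27 and 3 reads, log2 ratio 2.70, 1.17 to 5.24). Stat2 was not called there (80 and 40, 0.69). Of 7 measured upstream sensors and adaptors 3 were called higher and 1 lower, and of 3 feedback inhibitors none and 1. Over all genes in this pair the shares were 20.2% higher and 14.2% lower. Microglial markers stood at 421 and 451 CPM, with 2 of 9 measured called higher and 2 lower. In the authors' deposited table of this pair 27 members are listed, none with an adjusted p under 0.05 and 1, Trim25, with an unadjusted p under 0.05 (p = 0.0140).

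**Figure D5:**
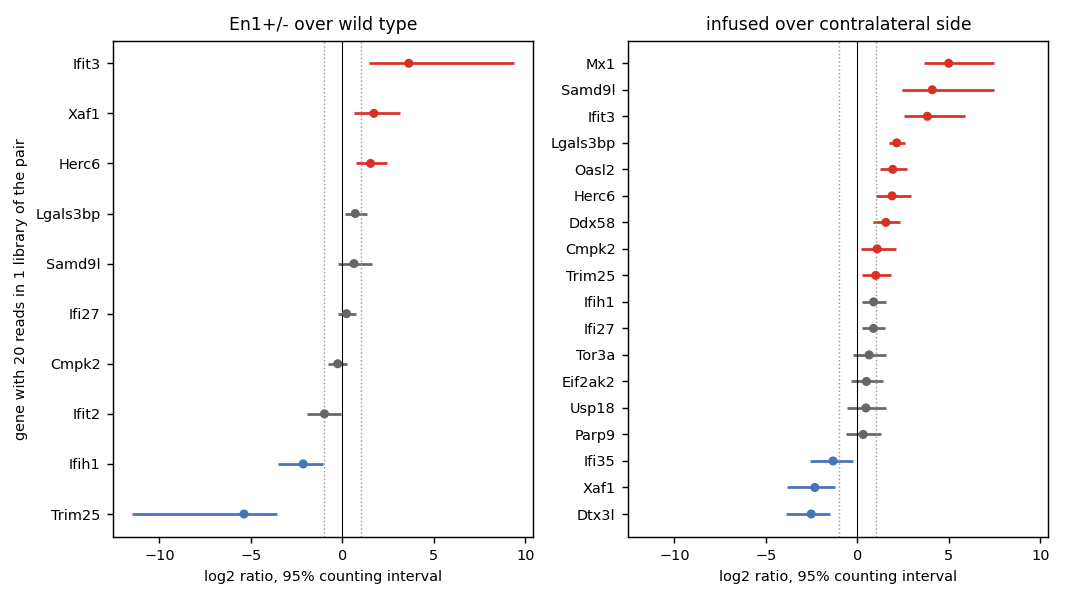
Log2 ratio with 95% counting interval (bars) of each measured member in the En1+/- pair (left, 10 genes) and in the infused pair (right, 18 genes), 1 library per group; red is called higher, blue lower and grey neither. The En1+/- pair has 3 red and 2 blue genes and the infused pair 9 red and 3 blue, and most intervals are wide.

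The contralateral and the wild type library carry the same genotype label and differ in age and treatment, and they show how far members differ between captured libraries with no changed Engrailed genotype and no direct infusion. This comparison shares 1 library with each captured pair. Of 12 measured members, 4 were called higher on the contralateral side and 3 lower, against 14.1% and 13.4% of 10742 genes. Ifi35 had 23 contralateral reads and none in wild type, a 6.23-fold ratio against the floor of 3 reads. The lower end of its interval was 4.67-fold. Dtx3l had 2 and 43 (log2 ratio 3.85, interval 2.19 to 7.22), Ddx58 had 2 and 22 (2.90, 1.14 to 6.29) and Xaf1 had 7 and 33 (1.87, 0.74 to 3.36). Cmpk2 had 50 and 14 (-2.09, -3.11 to -1.26), Ifit2 had 21 and 8 (-1.63, -3.08 to -0.46) and Trim25 had 35 and 21 (-1.02, -1.89 to -0.22), a call lost with a pseudocount of 5 (-0.87) or summed transcripts (-0.88). Dtx3l, Xaf1 and Ifi35, lower on the infused side, were thus higher on the contralateral side than in wild type, and their wild type and infused counts were 2 and 8, 7 and 7, and 0 and 10. The mirror image held for 2 genes called higher on the infused side, Cmpk2 at 33.1 CPM in wild type, 7.34 contralaterally and 14.7 with infusion, and Trim25 at 23.2, 11.0 and 20.8 CPM. Samd9l, also called higher on the infused side, was at 9.27, 1.05 and 20.4 CPM. Its 14 wild type and 2 contralateral reads were below the minimum for a call. The summed reads of the 42 differed little between the contralateral and the wild type library, with a ratio of 1.08 (0.941 to 1.25).

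Across the pairs, 18 members were measured in both the infused and the punched pair, which share no library, and 9 of them were called higher in both: Mx1, Samd9l, Ifit3, Lgals3bp, Oasl2, Herc6, Ddx58, Cmpk2 and Trim25. Of these, Oasl2, Ddx58, Cmpk2 and Trim25 each lost the call on the infused side under at least 1 alternative processing. Since 41 of 42 were called higher in the punches, this count follows from the calls in the infused pair. Ifit3 and Herc6 were called higher in all 3 pairs, but reads of both may be shared with other genes. Ifit3 has the near copy Ifit3b, and Herc6 overlaps the annotated gene Gm45193 over 45031 bases of the same strand. Both are left out when members with a near copy or an overlapping gene are set aside. Ifit3 was 12.5-fold higher in En1+/- (2.76 to 671), 14.2-fold on the infused side and 18-fold in the punches, the first on 1 and 33 reads. Lgals3bp was the 1 gene whose ratio on the infused side, 4.44-fold (3.31 to 6.14), lay above that in the punches, 2.80-fold (2.50 to 3.15), with no overlap of the intervals. Trim25 was lower in En1+/- and higher in both En2 pairs, and Xaf1 was higher in En1+/- and in the punches and lower on the infused side.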

How the data were processed

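RNA of mouse SNpc was sequenced in 6 samples. The authors deposited 1 table of read counts for each sample, over 95533 transcripts (captured) or over genes (punched). Transcripts that lack a gene identifier, 9402 with 2.93% to 4.78% of counts, were dropped. In the punched files 4 counts stood 1 column to the right and were moved back. Per the submitters' processing notes, tools were HTSeq, Bowtie and DESeq 1.8.3 (roles not stated) and the build mm10, while a header of the punched comparison table names mm9. Of the authors' deposited comparison tables, those of captured pairs hold log2 fold changes and that of the punches a ratio (linear fold). Each also holds p-values, raw and adjusted, computed by the authors from single libraries. Another 6 columns with means of a library were left unused. The files hold no coordinates, and positions come from GENCODE release 21 for mouse on GRCm38.

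A captured gene was represented by whichever of its transcripts had most reads, summed over the 4 captured libraries, since a read can count for several transcripts. Scaling within a pair used the median of ratios, a pseudocount of 0.5 was applied, and log2 ratios were given exact 95% Clopper-Pearson counting intervals. Summed levels have exact Poisson intervals. A gene at 0 reads was set against a floor of 3 reads. With 1 sample per group no difference has a replicate check. Members past the size rule and the 5 most-read of each pair were to be described in full. Alternatives were library totals, TMM (edgeR 4.0.16, R 4.3.3), other read minimums, a pseudocount of 5, sums over transcripts, stricter promoter letters and CPM over all counts. One gene of the receptor and signalling list is not reported here, and counts over that list leave it out. The steps were tested on simulated data. Python 3.11.15 with scipy 1.17.1 was used. The members, lists and rules were chosen with earlier results of these data known.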

Additional observations from a re-analysis of the deposited data

How the results depend on the processing

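In the punched pair, the calls of the members measured were kept under library totals, TMM, no minimum count, a minimum of 100 reads, a pseudocount of 5 and a minimum of 20 reads in both libraries, with medians from 3.35 to 3.64. Without members that have a near copy or overlap another annotated gene, a choice made after seeing the data, 24 of the 25 members left were called higher and 0 lower in the punches. Among these 25, 1 was called higher and 2 lower in the En1+/- pair, and 7 higher and 1 lower in the infused pair. Not all 25 were measured there, since only 10 and 18 of the 42 were. Those of the 25 measured but not called were Ifit2, Ifi27, Cmpk2, Samd9l and Lgals3bp in the En1+/- pair. In the infused pair they were Ifih1, Ifi27 and Tor3a. Of all genes measured, 20.2% were called higher and 14.2% lower in the En1+/- pair, and 20.7% and 17% in the infused pair. These percentages are shares of measured genes and do not compare with shares of the 25. With no minimum count, 4 members were called higher and 6 lower of 27 in the En1+/- pair (2537 and 2841 of all 16902 genes), and 11 higher and 5 lower of 34 in the infused pair (2827 and 3099 of 17756). With a minimum of 100 reads, 2 members were measured in the En1+/- pair, with 0 calls in both directions. Between the contralateral side and wild type 0 members were then measured, so no call was possible. The infused pair had 2 higher, 0 lower and a median log2 ratio of 3.57, on 2 genes (1001 higher and 470 lower of all 5651 genes). With 20 reads in both libraries fewer genes were measured. The En1+/- pair then had 0 higher and 0 lower of 4 members (985 and 1005 of all 8715 genes). The infused pair had 4 higher and 0 lower of 7 (1125 and 846 of 8597). Summed over transcripts, 4 members were higher and 5 lower of 15 in the En1+/- pair (2520 and 2030 of 12276 genes). In the infused pair 9 were higher and 4 lower of 21 (2547 and 2373 of 12330 genes), and the calls of 4 of the 18 members changed. Library totals shifted the median of all genes by -0.12 in the En1+/- pair and -0.10 in the infused pair. Ifit2 was then called lower in En1+/- (-1.09). On the infused side 7 members rather than 9 were higher and 3 lower, of 18 (2142 and 2140 of all 11361 genes). As CPM over all counts, the summed level was 21.2 for wild type, 32.1 for En1+/-, 25.3 contralaterally and 72.2 with infusion, because mitochondrial and ribosomal RNA entered the total. With the stricter ISRE letters, followed by CT, 27.6% of members with a window matched, against 0.303% of all genes. No paired analysis was possible because each group has 1 sample. Depth limits the captured pairs, in which 32 and 24 of the 42 members were not measured.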
